A study of Homo sapiens with 3 samples.

Results

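Coenzyme Q synthesis was followed through 10 genes, COQ2, COQ3, COQ4, COQ5, COQ6, COQ7, COQ8A, COQ8B, COQ9 and COQ10A, in U2OS, a human osteosarcoma cell line. The genes were chosen by symbol, with all 3 arrays' signals already known, so their values are a description and carry no test. The platform annotation gave these 10 symbols to 18 probe sets, out of 41091 probe sets with 1 symbol and 19775 genes. All 10 genes had a probe set past the brightness filter, a mean signal of at least 51.4, as did 11783 genes in all. At the level of probe sets 16 of the 18 passed.

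The 3 groups had 1 array each. The first came from cells transduced with a retrovirus encoding Set8b_deltaPIP2, a form of the histone H4 lysine 20 methyltransferase Set8b that the ubiquitin ligase CRL4-Cdt2 cannot target for degradation (called stable Set8b here). The second came from cells given wild-type Set8b, and the third from cells given the empty pMSCV vector. All cells were U2OS and were harvested 5 days after transduction, so retroviral transduction itself was shared by all groups. Whether cells were clones or a mixed population, and which promoter drove the constructs, is not stated in the labels. With a single array per construct the differences have no replicates behind them, and no test was made. As a yardstick, different probe sets of 1 gene disagreed with an SD of 0.39 log2 in the comparison of stable Set8b with vector, 0.42 in that with wild-type Set8b, and 0.36 between wild-type Set8b and vector (5356 genes). This SD covers probes on the same arrays and not cultures. Fewer cells of a kind and less RNA per cell cannot be told apart in such samples.

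Coenzyme Q (ubiquinone) is a lipid that carries electrons in the inner mitochondrial membrane, from complexes I and II and other dehydrogenases to complex III, and it also serves as an antioxidant. Its ring comes from 4-hydroxybenzoate and its tail from the isoprenoid pathway. COQ2 joins the ring to the tail. A membrane-bound assembly of COQ3 to COQ7 and COQ9 then modifies the ring, while COQ8A and COQ8B, atypical kinase-like proteins, are needed for the assembly, and COQ10A binds the finished lipid. Proliferating cells also use coenzyme Q to make pyrimidines, since DHODH passes its electrons to it.

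The promoters of COQ2, COQ7 and COQ8B are shown because these genes had the lowest values over vector. COQ5 and COQ9 are shown because they held the same match while their signals differed. RefSeq windows on GRCh38.p14 were found for 8 of the 10 genes, from 250 bases before to 50 after the annotated start. COQ3 and COQ4 were not among them. Each is written 5′ to 3′ on the gene's strand, and where a gene had several starts the first listed was used. Capitals mark matches, on either strand, to E2F (TTTCCCGC or TTTGGCGC), NRF1 (GCATGCGC), CREB (TGACGTCA), YY1 (ATGGCGGC), GABP (CCGGAAG) and NF-Y (CCAAT).
COQ2, chr4:83284749-83285048, minus strand: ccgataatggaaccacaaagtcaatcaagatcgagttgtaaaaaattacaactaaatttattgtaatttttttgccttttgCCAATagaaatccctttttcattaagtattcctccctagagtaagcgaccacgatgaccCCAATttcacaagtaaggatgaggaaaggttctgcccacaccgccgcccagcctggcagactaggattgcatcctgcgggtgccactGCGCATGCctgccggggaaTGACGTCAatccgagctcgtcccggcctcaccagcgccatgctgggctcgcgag
COQ7, chr16:19067364-19067663, plus strand: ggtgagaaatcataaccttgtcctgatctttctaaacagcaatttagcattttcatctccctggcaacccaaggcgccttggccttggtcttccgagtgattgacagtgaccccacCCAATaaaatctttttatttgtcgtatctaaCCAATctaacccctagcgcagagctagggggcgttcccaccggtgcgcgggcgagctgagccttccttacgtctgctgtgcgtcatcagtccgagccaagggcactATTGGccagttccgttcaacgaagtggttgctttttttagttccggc
COQ8B, chr19:40716837-40717136, minus strand: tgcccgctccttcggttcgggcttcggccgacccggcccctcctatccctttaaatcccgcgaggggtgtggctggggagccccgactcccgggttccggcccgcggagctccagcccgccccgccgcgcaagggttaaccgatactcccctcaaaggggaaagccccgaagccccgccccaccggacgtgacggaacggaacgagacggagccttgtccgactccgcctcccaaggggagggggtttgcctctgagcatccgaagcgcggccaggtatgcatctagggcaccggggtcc
COQ5, chr12:120529109-120529408, minus strand: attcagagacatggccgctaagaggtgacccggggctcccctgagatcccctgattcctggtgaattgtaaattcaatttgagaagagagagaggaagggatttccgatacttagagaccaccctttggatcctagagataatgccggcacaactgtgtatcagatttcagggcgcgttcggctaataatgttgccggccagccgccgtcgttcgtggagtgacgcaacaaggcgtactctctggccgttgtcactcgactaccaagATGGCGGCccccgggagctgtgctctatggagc
COQ9, chr16:57447229-57447528, plus strand: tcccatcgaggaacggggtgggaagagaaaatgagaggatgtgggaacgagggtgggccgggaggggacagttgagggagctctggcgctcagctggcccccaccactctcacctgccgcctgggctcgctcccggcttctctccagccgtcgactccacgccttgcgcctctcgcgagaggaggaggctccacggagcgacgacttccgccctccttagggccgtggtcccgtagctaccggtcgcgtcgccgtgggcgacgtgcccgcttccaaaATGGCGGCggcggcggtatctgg

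COQ2 held the NRF1 letters from 23 bases before its start and the CREB letters across it, as well as 2 NF-Y boxes. Among 27305 first windows of all genes, 3.27% held the NRF1 letters and 1.98% the CREB letters. The NF-Y box stood in COQ2, COQ7 and COQ8A, 3 of 8 windows, and in 35.7% of all windows. COQ7 and COQ8A had 3 boxes each. The YY1 letters, in 3.21% of all windows, began 18 bases after the start in COQ5 and 28 bases after it in COQ9, and in both they began at the first ATG after the start. The E2F letters (2.31% of all windows) and the GABP letters (10.7%) were in 0 of the 8 windows, and the shown window of COQ8B held none of the 6 motifs. A match is a description of letters and does not show that a factor bound.

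As a check of the libraries, KMT5A, the gene of Set8, was read by 4 probe sets. For stable Set8b over vector 3 of the 4 lay above 0, within a range of -0.76 to 0.90 log2, and the brightest was the one below. For wild-type Set8b over vector all 4 lay above 0, between 0.18 and 1.23. For stable over wild-type Set8b all 4 lay below 0, between -1.08 and -0.06. On deposited values the median signal was 41.7, 42.8 and 38.6 on the stable Set8b, wild-type Set8b and vector arrays. The poly-A spike-ins, 27 control probe sets, had a median ratio over vector of 0.463 for stable and 0.453 for wild-type Set8b, so the vector array stood apart in them. The 18 hybridisation spike-ins had ratios over vector of 0.796 and 1.01. The 3′ to 5′ signal ratio on the stable Set8b, wild-type Set8b and vector arrays was 1.02, 1.12 and 1.03 for GAPDH and 7.33, 7.56 and 7.995 for ACTB. Of 11 mesenchymal and bone markers, 9, 8 and 8 were at or above the filter level, with summed signals of 45084, 33130 and 35792.5, while COL1A2 and IBSP were below it. Of 6 epithelial markers 5, 3 and 3 reached it (sums of 720.0, 745 and 633). Of 7 blood cell markers, leukocyte genes and the red-cell globin HBB, 3, 4 and 3 did (sums of 464, 479.8 and 384). HBB and the leukocyte genes CD3D and CD79A reached it on every array, and CD3E on the wild-type Set8b array alone. PTPRC was below it throughout. The part of these checks in the results below was not tested.

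Stable Set8b was first compared with the empty vector. These arrays differ in the added Set8b as well as in its protection from degradation, and this comparison cannot separate them. COQ2, COQ3, COQ4, COQ5, COQ7 and COQ8B were lower with stable Set8b by their brightest probe sets, with log2 differences from -1.03 to -0.64. COQ8A and COQ9 differed by 0.01 and -0.05, and COQ10A and COQ6 were at 0.26 and 0.45. At least 2-fold lower were 2 of the 10 genes, COQ8B and COQ7, where 4.81% of all genes were, and at least 2-fold higher were 0 of the 10, where 5.24% of all genes were. Both lay close to the threshold, and COQ2 fell just short of it at -0.99. The median of the 10 genes was -0.67, beside -0.01 over the 11783 genes. Below 0 lay 7 of the 10 and 50.5% of all genes. Over the 16 probe sets past the filter, 10 lay below 0 and the median was -0.64. Of all 20546 probe sets past the filter 51.4% lay below 0, with a median of -0.02.

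**Figure D1:**
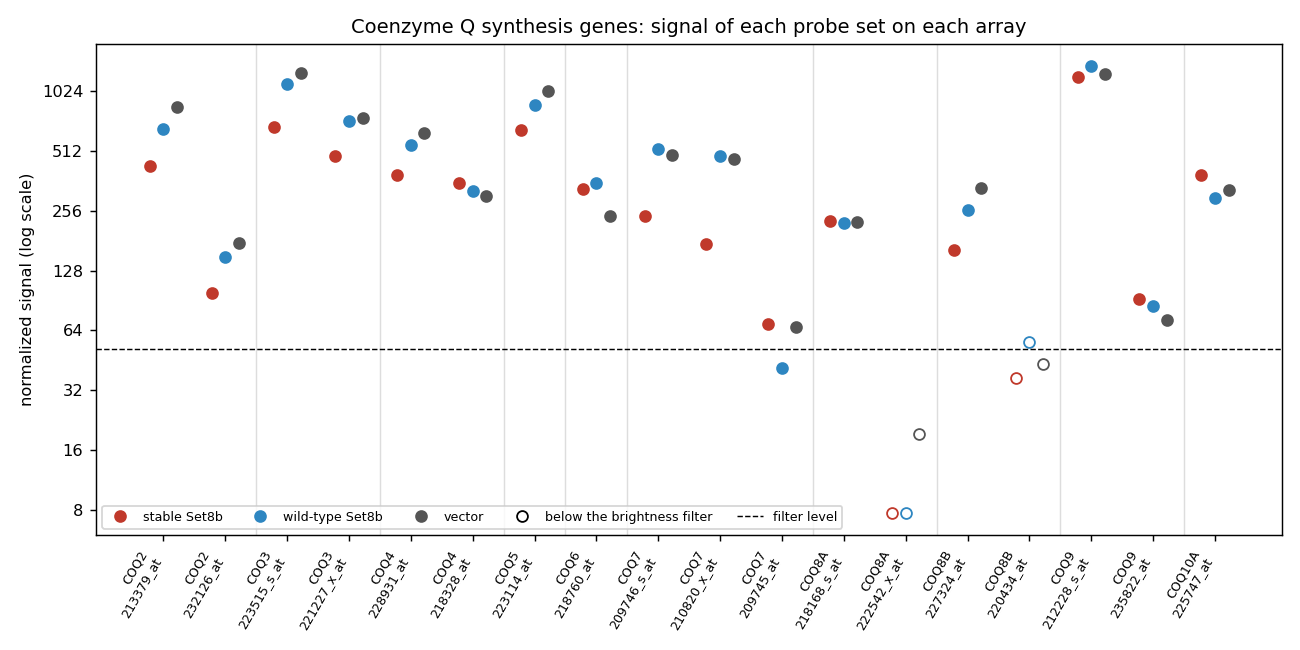
Normalized signal (log scale) of the 18 probe sets of the coenzyme Q synthesis genes on the stable Set8b (red), wild-type Set8b (blue) and vector (grey) arrays, 1 point per array. Both probe sets of COQ2 and of COQ3, and the bright ones of COQ4, COQ5 and COQ8B, are lowest with stable Set8b, between with wild-type Set8b and highest with vector, while the bright COQ8A and COQ9 probe sets lie almost level; open points did not pass the filter level of 51.4 (dashed).

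COQ2, the transferase that attaches the isoprenoid tail to the ring, was read by 2 probe sets whose differences lay close together. Probe set 213379_at had a normalized signal of 429 with stable Set8b, 659 with wild-type Set8b and 854 with vector. It was 1.99-fold lower with stable Set8b than with vector. Probe set 232126_at had 98.4, 150.2 and 176 on the same arrays, a log2 difference of -0.84 over vector. In both the stable Set8b array was lowest and the vector array highest.

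COQ3 encodes the methyltransferase that acts on the ring's oxygens. By its brighter probe set, 223515_s_at, the signal was 676 with stable Set8b, 1116 with wild-type Set8b and 1266 with vector. The log2 difference over vector was -0.91. Its other probe set, 221227_x_at, had 484, 724 and 749.7, a log2 difference of -0.63. The gap was mostly between the stable Set8b array and the other arrays, since wild-type Set8b over vector was -0.18 and -0.05.

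COQ5, the methyltransferase that acts on a ring carbon, had a single probe set. It had a signal of 655 with stable Set8b, 872 with wild-type Set8b and 1021 with vector, and the log2 difference of stable Set8b over vector was -0.64. COQ4, needed for the assembly of the synthesis complex, had 2 probe sets that went opposite ways. The brighter, 228931_at, had 388 with stable Set8b, 547 with wild-type Set8b and 628 with vector (-0.70 over vector). The other, 218328_at, had 354, 322 and 304 (0.22 over vector), so the direction of COQ4 was not settled.

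COQ6 and COQ7 are the hydroxylases of the ring, COQ7 the one that acts at the last but one step. COQ7 had the widest range over the 3 arrays among the 10 genes. By probe set 209746_s_at the signal was 242 with stable Set8b, 527 with wild-type Set8b and 491 with vector, 2.03-fold lower with stable Set8b than with vector. Probe set 210820_x_at had 174, 483 and 465, a log2 difference of -1.42 over vector. The endings _s_at and _x_at mean that a probe set can also read related transcripts. The third, the dim 209745_at, had 69.1, 41.6 and 66.6, a log2 difference of 0.05, so the low COQ7 value rests on the 2 brighter ones. COQ6 ran otherwise. It had 328 with stable Set8b, 354 with wild-type Set8b and 241 with vector, so the vector array was lowest, at log2 differences of 0.45 and 0.55 for stable and wild-type Set8b over vector. It was read by 1 probe set, and the poly-A spike-ins also set the vector array apart from both others. Their part in this was not tested.

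COQ9, the lipid-binding partner of COQ7, was nearly level by its brighter probe set. Probe set 212228_s_at had 1205 with stable Set8b, 1366 with wild-type Set8b and 1249 with vector. Its dimmer probe set, 235822_at, had 91.6, 84.5 and 71.9, a log2 difference of 0.35 over vector, within the spread between probe sets. By their brightest probe sets the hydroxylase COQ7 and its partner COQ9 thus lay apart, at -1.02 and -0.05. The dim COQ7 probe set 209745_at, at 0.05, did not show this.

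COQ8A and COQ8B are paralogous kinase-like ATPases; loss of COQ8A is known for cerebellar ataxia and loss of COQ8B for a kidney disease of podocytes. They also lay apart. COQ8B had a signal of 163 with stable Set8b, 258 with wild-type Set8b and 333 with vector by probe set 227324_at, 2.04-fold lower with stable Set8b than with vector. COQ8A had 227, 221 and 225 by probe set 218168_s_at, a log2 difference of 0.01. Their dimmer probe sets did not pass the filter. Probe set 220434_at of COQ8B had 36.9 with stable Set8b, 56.2 with wild-type Set8b and 43.2 with vector. That is a log2 difference of -0.23 over vector, with the wild-type array highest. Probe set 222542_x_at of COQ8A was at the floor of 7.72 on both Set8b arrays and at 19.3 on the vector array. COQ10A, whose product binds coenzyme Q and is needed for its use in respiration in yeast, had 387.5 with stable Set8b, 298 with wild-type Set8b and 324 with vector. It was highest with stable Set8b, but by a log2 difference of 0.26 over vector, within the spread between probe sets.

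**Figure D2:**
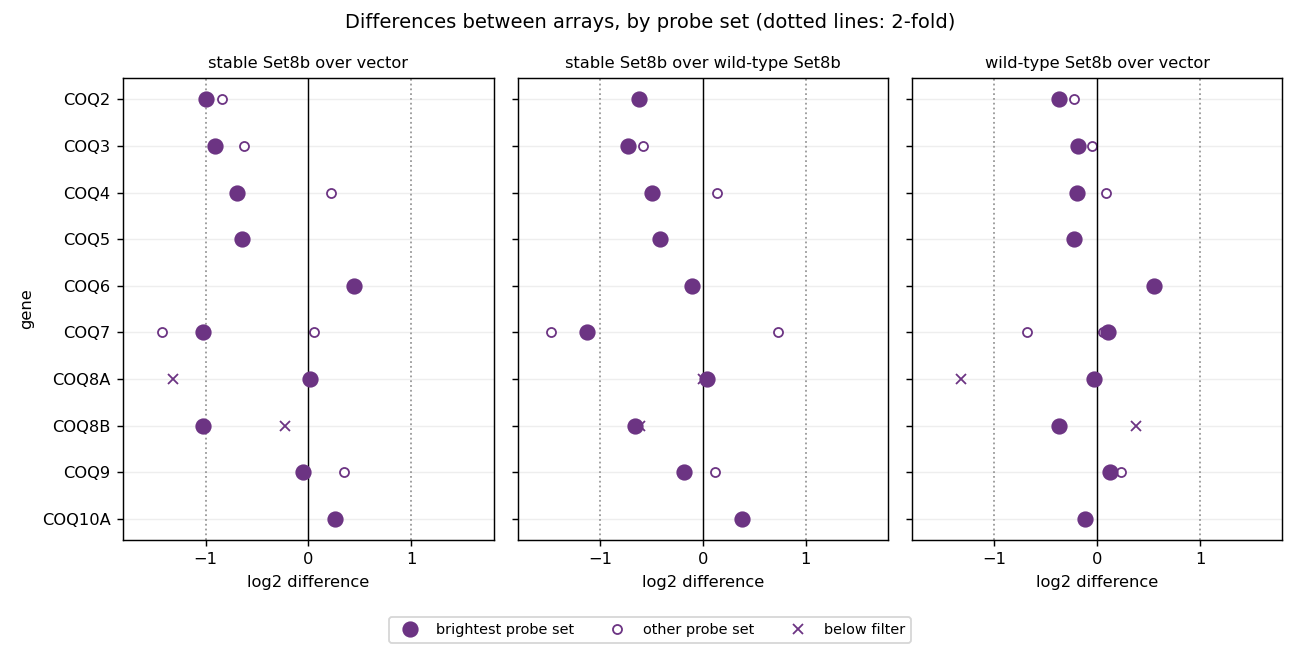
Log2 difference of each probe set for stable Set8b over vector, stable over wild-type Set8b and wild-type Set8b over vector. Filled points are the brightest probe set of a gene, open points the other probe sets and crosses those below the filter; dotted lines mark 2-fold. The probe sets of COQ2 and of COQ3 lie close together, while COQ4 and COQ7 have probe sets on both sides of 0.

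Setting stable beside wild-type Set8b compares a protected with a degradable form of the enzyme. It shares the stable Set8b array with the comparison above. By the brightest probe sets 8 of the 10 genes lay below 0, beside 51.4% of all genes, with a median of -0.45 beside -0.02. COQ7 was lowest at -1.12, followed by COQ3 at -0.72, COQ8B at -0.66 and COQ2 at -0.62. COQ4 was at -0.50 and COQ5 at -0.41, and COQ9, COQ6, COQ8A and COQ10A were at -0.18, -0.11, 0.04 and 0.38. COQ7 was the 1 gene of the 10 at least 2-fold lower, where 4.8% of all genes were, and 0 were at least 2-fold higher, where 4.45% were. The dimmer COQ7 probe set 209745_at lay the other way, at 0.73. Both probe sets of COQ2 lay within -0.62 to -0.61, and those of COQ3 within -0.72 to -0.58.

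Wild-type Set8b over vector, which shares an array with each of the other comparisons, gave smaller differences. The 10 genes lay between -0.37 (COQ2 and COQ8B) and 0.55 (COQ6), with a median of -0.15 beside 0.01 over all genes. None was 2-fold lower or higher, 0 of 10 each way, where 0.653% of all genes were lower and 1.02% higher. COQ2, COQ8B and COQ6 were the genes whose difference exceeded the SD of 0.36 between probe sets. With arrays centred on their medians in place of quantile normalization, 4.27% of all genes were higher and 6.09% lower for stable Set8b over vector, and 0.772% and 1.09% for wild-type Set8b over vector. With values as deposited, the last pair was 1.30% and 0.526%.

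Across the 3 arrays, COQ2, COQ3, COQ4, COQ5 and COQ8B followed 1 order by their brightest probe sets, lowest with stable Set8b, between with wild-type Set8b and highest with vector. That order held for 5 of the 10 genes and for 20.6% of all genes. The stable Set8b array was lowest for 7 of the 10 and for 41.3% of all genes. For these 5 genes wild-type Set8b over vector lay between -0.37 and -0.18, close to or under the SD of 0.36 between probe sets, so the place of the wild-type array between the others was not resolved. The median range over the arrays was 0.67 log2 for the 10 genes and 0.48 for all genes.

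**Figure D3:**
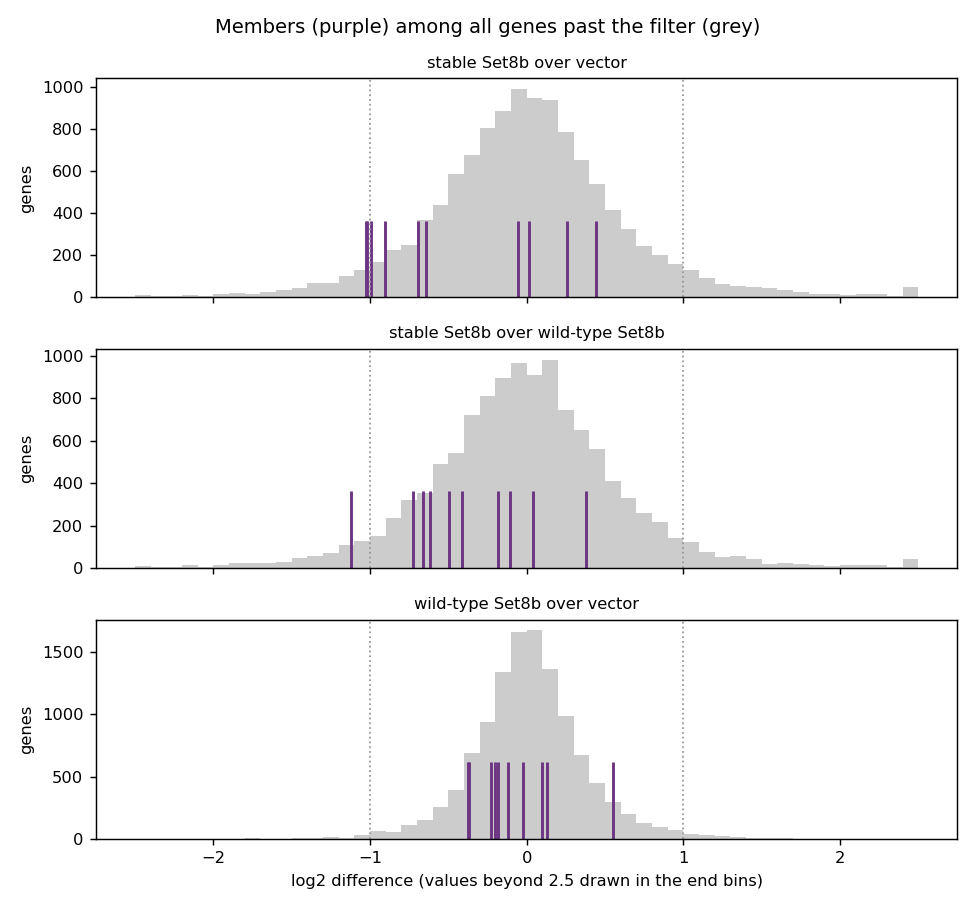
Histograms of the log2 difference of 11783 genes past the filter (grey) for the 3 comparisons, with the 10 coenzyme Q synthesis genes as purple lines (their height carries no value) and dotted lines at 2-fold. For stable Set8b over vector 6 of the lines lie between -1.03 and -0.64 and the other 4 between -0.05 and 0.45; for wild-type Set8b over vector all lie between -0.37 and 0.55.

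The genes nearest to COQ7 in pattern were found by the distance between their 2 log2 differences over vector. They were LINC02615 (distance 0.0080), NCAM1 (0.012) and UBTF (0.016). With 3 arrays such likeness is common, and 255 of 11782 genes lay within 0.25 of COQ7.

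For the 8 genes with a RefSeq window, genes that start within 1000 bases on the other strand were looked up in the same table of windows, which gave 4 neighbours. COQ8B and ITPKC, which encodes an inositol trisphosphate kinase, start 226 bases apart and run away from each other. ITPKC had a signal of 181 with stable Set8b, 118 with wild-type Set8b and 74.7 with vector, a log2 difference of 1.27 over vector, where COQ8B had -1.03. These neighbours lay on opposite sides of 0 in all 3 comparisons, each by 1 probe set past the filter. CIAPIN1, an iron-sulphur cluster assembly factor, starts 94 bases from COQ9 in the same arrangement and gave 0.17 over vector by its brighter probe set and -0.09 by the other past the filter, beside -0.05 for COQ9. FAM161B starts 168 bases from COQ6 in an overlapping arrangement, and its probe sets gave -0.36 (the brighter) and 0.09 (the dimmer), beside 0.45 for COQ6. COQ7-DT starts 32 bases from COQ7 and had no probe set with its symbol alone, so it was not measured here.

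Other genes of coenzyme Q synthesis and handling had both signs. Of 12 listed, 10 passed the filter. For stable Set8b over vector 4 of the 10 lay below 0, beside 50.5% of all genes, with a median of 0.05. Past 2-fold were 0 of the 10 each way, where 4.81% of all genes were lower and 5.24% higher. Over wild-type Set8b 7 of the 10 lay above 0 (median 0.26), beside 48.6% of all genes (median -0.02). For wild-type Set8b over vector 8 of the 10 lay below 0 (median -0.18), beside 48.5% of all genes (median 0.01). The tail is made by PDSS1 and PDSS2, the subunits of the prenyl diphosphate synthase. PDSS1 had a signal of 463 with stable Set8b, 332 with wild-type Set8b and 460.4 with vector. PDSS2 had 231, 262 and 342, a log2 difference of -0.57 over vector, and -0.05 by its other probe set. COQ10B, the paralogue of COQ10A, had 776 with stable Set8b, 489.6 with wild-type Set8b and 437 with vector, 0.83 over vector, the highest of the list. ADCK1, of the same kinase-like family as COQ8A, was at 0.65 over vector. FDX2, a mitochondrial ferredoxin, was at 0.34 over vector and 0.82 over wild-type Set8b. FDXR was not analysed here, and HPDL did not pass the filter.

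Isoprenoid supply was read by 7 of 10 listed genes. The median was -0.34 over vector and -0.28 over wild-type Set8b, with 5 of 7 below 0 in each. Of all genes 50.5% and 51.4% lay below 0. Past 2-fold were 0 of the 7 in each by the brightest probe set. Of all genes 4.81% were lower and 5.24% higher over vector, and 4.8% and 4.45% over wild-type Set8b. PMVK, phosphomevalonate kinase, had 565 with stable Set8b, 966 with wild-type Set8b and 859 with vector (-0.60 over vector). ACAT2 was at -0.45 over vector and FDPS, which makes farnesyl diphosphate, at -0.42. HMGCS1, which makes the HMG-CoA at the head of the pathway, was the highest, with 1563, 830.4 and 1087 (0.52 over vector, and 1.65 by its other probe set). FDFT1 was not analysed here.

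Among 10 enzymes that reduce coenzyme Q outside the respiratory complexes or pass electrons towards it, 9 passed the filter. Their median was -0.21 over vector, with 7 of 9 below 0, beside 50.5% of all genes. Over wild-type Set8b it was -0.27, with 8 of 9 below 0, beside 51.4% of all genes. GPD2, the mitochondrial glycerol 3-phosphate dehydrogenase, was the 1 gene of the 9 past 2-fold over vector, where 4.81% of all genes were lower. It had 684 with stable Set8b, 1026 with wild-type Set8b and 1545 with vector, a log2 difference of -1.18. Its other probe set past the filter was at -0.53. ETFB, a subunit of the electron transfer flavoprotein, had 1924 with stable Set8b, 2958 with wild-type Set8b and 2767 with vector (-0.52 over vector). NQO1 was at -0.47. The brightest DHODH probe set gave -0.21 and the others past the filter 0.25 and 0.15, so its direction was not settled. CHDH, choline dehydrogenase, was the 1 gene past 2-fold over wild-type Set8b, at 1.03, where 4.45% of all genes were higher. Its signals were dim, 82.2 with stable Set8b, 40.1 with wild-type Set8b and 51.45 with vector. Over vector it was at 0.68, the other way from GPD2, ETFB and NQO1.

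**Figure D4:**
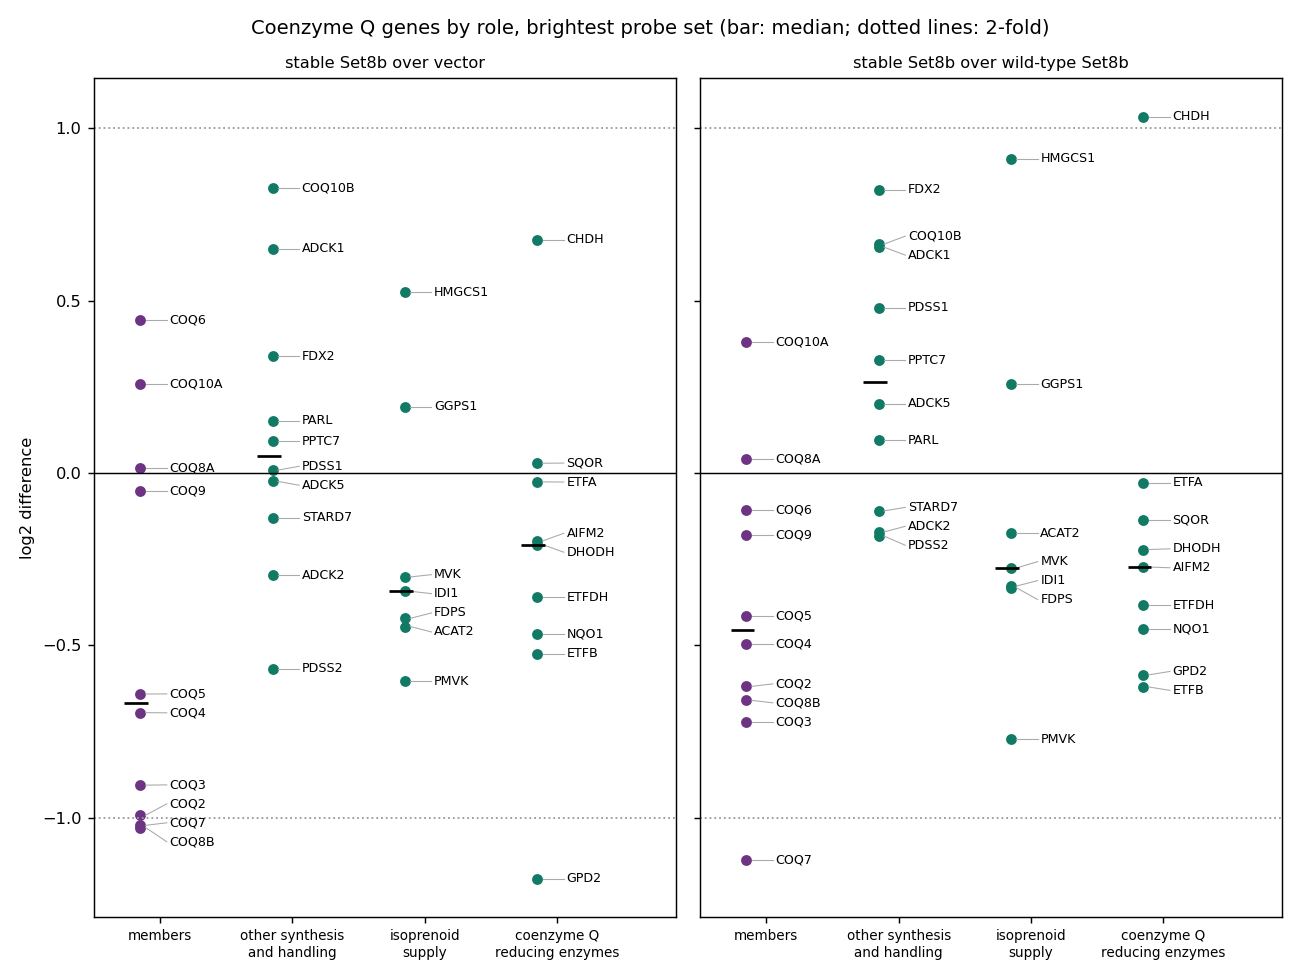
Log2 differences by the brightest probe set for the 10 coenzyme Q synthesis genes (purple) and 3 lists of related genes (green), for stable Set8b over vector and over wild-type Set8b; bars are medians and dotted lines mark 2-fold. The median over vector is -0.67 for the 10 genes, against 0.05 for other synthesis and handling, -0.34 for isoprenoid supply and -0.21 for coenzyme Q reducing enzymes.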

How the data were processed

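Total RNA of 3 U2OS samples, 1 per construct, was extracted with Trizol, biotin-labelled and run on Affymetrix arrays, according to the labels. The deposited table gives a linear intensity for each of 54675 probe sets. The sources used here do not name the software behind it. Each array had a trimmed mean of 250.0, so the authors' values appear scaled to it. The log2 medians spanned over 0.1, so the arrays were quantile normalized here. The 62 control probe sets were left out, values were floored at the 20th percentile (7.72), and genes were named from the annotation where a probe set had 1 symbol (41091; 1801 had several and 11721 none). Of these, 41037 matched RefSeq by Entrez identifier. Probe sets with mean log2 at or above the median were kept, and the brightest stood for its gene. With 1 array per group no test was possible, and genes were counted at 2-fold. Python 3.11.15, numpy 2.4.6 and pandas 2.3.3 were used, and the steps were tested on simulated data. By rule, all 10 genes were given by every probe set. The lists were given by counts, with values for some of the genes furthest from 0 and for genes whose role is stated. The genes, lists and motifs were chosen with earlier results of these data known. Quantile normalization removes overall shifts, and background compresses differences of dim probe sets. The number of arrays limits the precision. Alternatives varied the normalization, floor, filter, choice of probe set and fold threshold.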

Additional observations from a re-analysis of the deposited data

How the results depend on the processing

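The median difference of the genes given stayed below 0 under all 9 alternatives in each comparison. It lay between -0.78 and -0.29 for stable Set8b over vector and between -0.45 and -0.26 over wild-type Set8b. For wild-type Set8b over vector it lay between -0.31 and -0.12. Changing the floor or dropping the filter could not move the medians, the counts or the values of single genes. The brightest probe set of each gene lay above every floor used, so those settings are no check of these results. In 2 of the 9, 8 of the 10 genes had a value: COQ8A and COQ8B were lost with the brightest 25% of probe sets, and COQ3 and COQ8A without _x_at and _s_at probe sets, where 4 of 8 genes lay below 0 over vector. Counts at 2-fold, all of lower genes, moved. Over vector, where 2 genes passed, 4 did with arrays centred on their medians (6.09% of all genes lower; the all-gene median was -0.12). The count was 1 with the mean over a gene's probe sets (4.51% lower), with the brightest 25% (3.73%), or without _x_at and _s_at probe sets (5.18%). At 1.5-fold 6 genes were lower, where 13.96% of all genes were, and at 3-fold 0, where 1.06% were. Over wild-type Set8b, where 1 gene passed, 0 did with the mean over probe sets (4.31% lower), without _x_at and _s_at probe sets (4.93%), or at 3-fold (1.15%), and 4 did at 1.5-fold, where 14.3% of all genes were lower. For wild-type Set8b over vector the count was 0 under all 11 alternatives. Without _x_at and _s_at probe sets COQ7 turned to 0.053 over vector and 0.73 over wild-type Set8b, with the dim 209745_at then its only probe set. Of 258 values of single genes, 4 moved by more than the SD between probe sets, and 2 more reversed, also by more than that SD. The total of 258 includes values under the changed floors and without the filter, which could not move. Genes with 1 probe set past the filter could not move with the choice of probe set either. Reversed means a change of sign from a main value at least 2-fold in size. Smaller main values changed sign too and are not in that count. Among them, COQ9 over vector went from -0.05 to as high as 0.35. COQ7 for wild-type Set8b over vector went from 0.10 to as low as -0.68. No paired analysis was possible because each group has 1 array.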
